A study of Gallus gallus with 6 samples.

Results

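Potassium channel genes were followed along the chicken cochlear duct on embryonic day 6.5, using all genes of the deposited table whose name starts with KCN. The table holds 65 of them among 17684 genes. They comprise 35 voltage-gated alpha subunits, 9 accessory subunits of voltage-gated channels, 8 calcium- or sodium-activated channels and subunits, 6 inward rectifiers and 7 two-pore domain channels. Each duct was cut into a distal, a middle and a proximal piece of similar length, and pieces of a region were pooled before polyadenylated RNA was sequenced. No treatment or genetic change is named in the labels. Each region has 2 libraries, 1 in a first and 1 in a second set, and the labels state that biological replicates were prepared separately. The labels do not say how many embryos went into a pool. Each pool holds whole dissected pieces, with sensory epithelium and future tegmentum vasculosum in all 3 regions and the future lagena in the distal one. In such bulk pools, fewer cells of a type and less RNA per cell cannot be told apart.

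Potassium channels let potassium leave or enter cells along its gradient and so set the resting potential, the shape and rate of electrical responses, and potassium recycling in epithelia. Voltage-gated channels are built from pore-forming alpha subunits with cytoplasmic or membrane-spanning partners, BK channels open on voltage and calcium, inward rectifiers hold the resting potential, and two-pore channels carry leak current. In the hearing organ of birds, low frequencies are sensed near the distal and high frequencies near the proximal end. BK channels together with calcium channels give mature hair cells of birds and turtles their electrical tuning, and beta subunits slow BK gating. KCNQ1 with KCNE1 carries potassium into endolymph.

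Expression is given in RPKM, reads per kilobase of gene scaled by the alignments of the library, as deposited. Depth ran from 9262860 alignments (distal, first set) to 73918748 (proximal, second set), so that a single read per kilobase equalled 0.108 RPKM at the lowest and 0.0135 RPKM at the highest depth. Markers of the prosensory epithelium were well detected, with 10 of 11 listed genes in the table and summed levels of 546 and 818 RPKM in the distal, 536 and 720 in the middle and 375 and 498 in the proximal libraries. Changes are differences of log2(RPKM + 1), positive where the region named first is higher, tested with limma over 12559 genes at 1 RPKM or more in at least 2 of 6 libraries, with adjusted p below 0.05 as the threshold. The main model has no set term and is called unblocked. An alternative with the set as a term is called the blocked model. The SE beside a change is from the blocked model and is smaller than that of the main one. For KCNMB4 between distal and proximal it was 0.25, against 0.515 in the main model.

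Most potassium channel genes were expressed at a low level. Of the 65, 46 passed the filter and were tested, 18 reached 1 RPKM in all 6 libraries and 5 had a mean of at least 10 RPKM. Of the 46, 9 passed through second-set libraries alone, and KCNA4, a Shaker-type alpha subunit gene, passed through the distal libraries alone. Of the 19 not tested, 17 reached 1 RPKM in no library and 2 in a single library. The members together held 185.6 and 254.4 RPKM in the distal, 204.2 and 335.2 in the middle and 237.0 and 297.4 RPKM in the proximal libraries, first set before second.

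**Figure D1:**
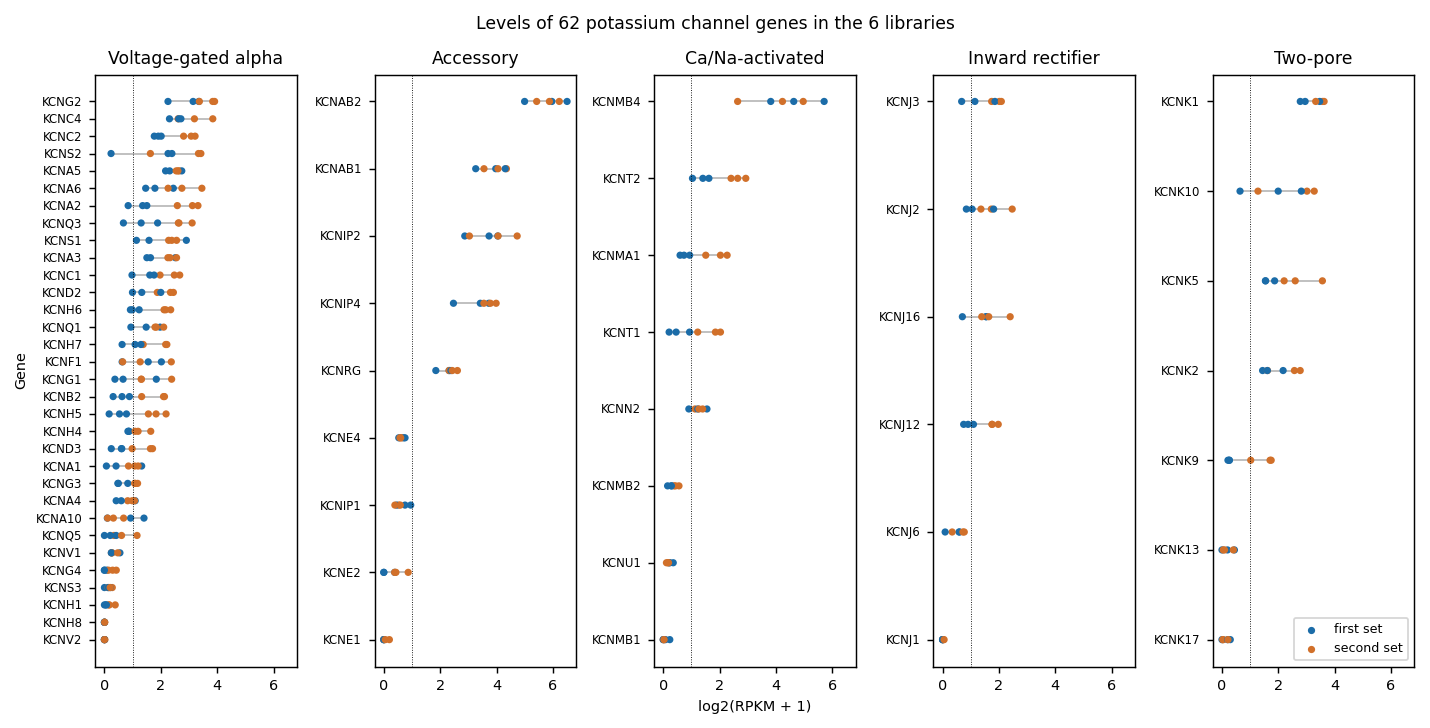
Levels of 62 of the 65 potassium channel genes, 1 panel per family, on a log2(RPKM + 1) axis. Each point is 1 of 6 libraries, coloured by set, the grey line spans a gene's lowest to highest library, and the dotted line marks 1 RPKM. KCNAB2 and KCNMB4 lie furthest to the right, with means of 59.2 and 23.6 RPKM.

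The highest levels belonged to accessory subunits, not to pore-forming ones. KCNAB2, a cytoplasmic beta subunit of Shaker-type channels, measured 30.9 and 41.9 RPKM in the distal, 61.4 and 73.8 in the middle and 89.7 and 57.7 in the proximal libraries. Its relative KCNAB1 measured 8.59 and 10.8 distally, 14.7 and 19.4 in the middle and 18.8 and 15.6 RPKM proximally. Both genes were lower in the distal libraries than in any other library. KCNG2, the most abundant alpha subunit gene, had 7.86 and 14.0 RPKM distally, 9.19 and 13.3 in the middle and 3.77 and 9.33 proximally, and its regions overlapped.

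Set against the proximal piece, the distal piece had more KCNMB4 and less KCNK10 and KCNS2. These 3 of 46 tested members passed the blocked limma model, against 66 of 12559 genes or 0.526% of all tested. By direction, 1 member was higher, where 0.247% of all genes were, and 2 were lower, where 0.279% were. Without the set term limma called 0 members and 0 genes in all, or 0%, while 7 members and 508 genes (4.04%) had an unadjusted p under 0.05. With the block these were 20 members and 1847 genes (14.7%). Leaving out 1 library, the blocked model called 3 to 22 members, but such a fit has 1 residual degree of freedom and called many more genes overall. The 22 members (47.8%) called without the second-set proximal library stand against 55.7% of all genes, and the 7 (15.2%) without the first-set proximal library against 6.35%. Blocked calls of members ended at 0 with no filter on low values (adjusted p = 0.195 for all 3) and with a pseudocount of 0.1 (0.0577 to 0.105). Of all genes tested, these fits called 0 of 16696 and 36 of 12559.

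KCNMB4 encodes the beta4 subunit of BK channels, which slows their gating. It measured 51.4 and 30.3 RPKM in the distal, 23.8 and 17.8 in the middle and 13.1 and 5.24 in the proximal libraries. Levels stepped down from distal to proximal in each set, and no distal library overlapped a library of another region. The mean was 40.8 ± 14.9 RPKM distally, 20.8 ± 4.25 in the middle and 9.16 ± 5.54 proximally (SD, n = 2 libraries each). The log2 change between distal and proximal was 2.11 ± 0.25 (limma, blocked adjusted p = 0.0443, unblocked 0.731). With any 1 library left out of the blocked model, this change lay between 1.81 and 2.41. Between middle and proximal the change was 1.20 ± 0.25 (blocked adjusted p = 0.509) and between distal and middle 0.91 ± 0.25 (0.389).

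The pore-forming BK gene KCNMA1 was ordered the other way. It measured 0.514 and 1.85 RPKM in the distal, 0.668 and 3.09 in the middle and 0.917 and 3.82 in the proximal libraries, so that each set stepped up towards the proximal end while the regions overlapped. Its change between distal and proximal was not called in either limma model. On the per-length scale of RPKM, KCNMB4 stood above KCNMA1 by 99.9-fold and 16.4-fold in the distal libraries, by 35.6-fold and 5.76-fold in the middle and by 14.3-fold and 1.37-fold in the proximal ones. These ratios differed widely between the sets. KCNMA1 passed the filter through second-set libraries alone, and its first-set distal value equals 4.77 reads per kilobase. The other BK beta subunit genes were barely detected. KCNMB2 stayed between 0.114 and 0.474 RPKM, and KCNMB1 between 0 and 0.176, where its highest value equals 1.63 reads per kilobase.

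KCNK10 encodes TREK-2, a two-pore leak channel opened by stretch, heat and lipids. It measured 0.559 and 1.42 RPKM in the distal, 2.98 and 7.09 in the middle and 6.04 and 8.67 in the proximal libraries. All distal values lay below every other library, and each set stepped up towards the proximal end. The mean was 0.991 ± 0.611 RPKM distally, 5.04 ± 2.90 in the middle and 7.35 ± 1.86 proximally (SD, n = 2 each). The change between distal and proximal was -2.09 ± 0.25 (limma, blocked adjusted p = 0.0443, unblocked 0.731). With any 1 library left out of the blocked model, it lay between -2.27 and -1.90. Its closest relative, the TREK-1 gene KCNK2, measured 1.72 and 2.06 RPKM distally, 3.50 and 4.94 in the middle and 2.05 and 5.85 proximally. Both distal values lay below both middle values, a change of -0.84 ± 0.31 (blocked adjusted p = 0.576), but distal and proximal libraries overlapped.

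KCNS2 encodes Kv9.2, a subunit that forms no channel alone and modifies Kv2 channels. It measured 0.177 and 2.10 RPKM in the distal, 3.78 and 9.72 in the middle and 4.26 and 9.11 in the proximal libraries. Its first-set distal value equals 1.64 reads per kilobase. Both distal values lay below all others, while middle and proximal libraries overlapped. The change was -1.93 ± 0.24 between distal and proximal (limma, blocked adjusted p = 0.0468, unblocked 0.9997) and -1.91 ± 0.24 between distal and middle (blocked adjusted p = 0.156). Without the first-set distal library, where the gene is lowest, the blocked call was lost (adjusted p = 0.107).

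**Figure D2:**
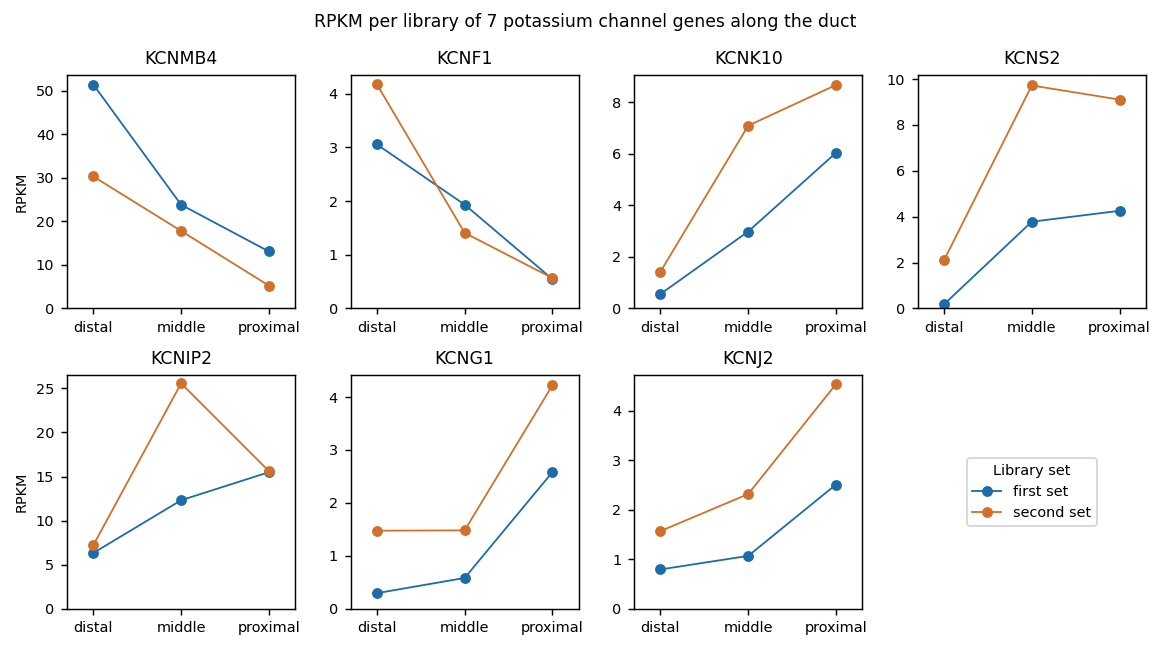
RPKM of the 7 genes whose distal and proximal libraries did not overlap and whose log2 change was at least 1, by region, with 1 line per set. KCNMB4 and KCNF1 are highest distally, KCNK10, KCNS2 and KCNIP2 are lowest distally, and KCNG1 and KCNJ2 are highest proximally.

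A further 4 members had log2 changes of at least 1 in size without overlap of distal and proximal libraries, but missed the threshold. By this rule there were 2 higher and 5 lower among the 46, where 2.56% and 3.23% of all genes tested were. KCNF1, a silent Kv5 subunit gene, had 3.06 and 4.18 RPKM in the distal, 1.94 and 1.41 in the middle and 0.546 and 0.566 in the proximal libraries. It stepped down from distal to proximal in each set (1.56 ± 0.25, limma, blocked adjusted p = 0.0754). KCNG1, a silent Kv6 subunit gene, had 0.294 and 1.48 RPKM distally, 0.582 and 1.48 in the middle and 2.58 and 4.22 proximally. Its first-set distal value equals 2.73 reads per kilobase. Distal and middle levels were close in the second set, while in the first set the middle one was 1.98-fold the distal one. Both regions lay below the proximal one (-1.27 ± 0.23 between distal and proximal, limma, blocked adjusted p = 0.0847, and -1.13 ± 0.23 between middle and proximal, 0.468).

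KCNIP2, a calcium-binding partner of Kv4 channels, measured 6.33 and 7.21 RPKM distally, 12.3 and 25.6 in the middle and 15.5 and 15.6 proximally. Its change was -1.09 ± 0.30 between distal and proximal (limma, blocked adjusted p = 0.186) and -1.28 ± 0.30 between distal and middle (0.300). KCNJ2, the strong inward rectifier Kir2.1, measured 0.794 and 1.57 RPKM distally, 1.07 and 2.32 in the middle and 2.51 and 4.54 proximally, a change of -1.04 ± 0.22 (0.111) between distal and proximal. Proximal values of KCNJ2 lay above all others, whereas KCNIP2 was separated at the distal piece.

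Over the 46 tested members, 12 were higher and 26 lower distally than proximally in both sets, or 26.1% and 56.5%, against 33.3% and 24.7% of all genes tested. The median change of the tested members was -0.33 in the first set and -0.34 in the second, against 0.19 and -0.01 over all genes. Libraries of distal and proximal did not overlap for 7 higher and 13 lower members (15.2% and 28.3%), against 13.1% and 10.3% of all genes. Both the 12 and the 7 higher members include KCNA4. That gene passed the filter through the distal libraries alone, which fixed its direction in advance. At 1.5-fold or more in both sets on the log2(RPKM + 1) scale, 5 were higher and 6 lower, against 3.5% and 4.82% of all genes. Across the 46, differences of the sets correlated at r = 0.722, and across all genes at 0.434; genes of a library share its depth and are not replicates.

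**Figure D3:**
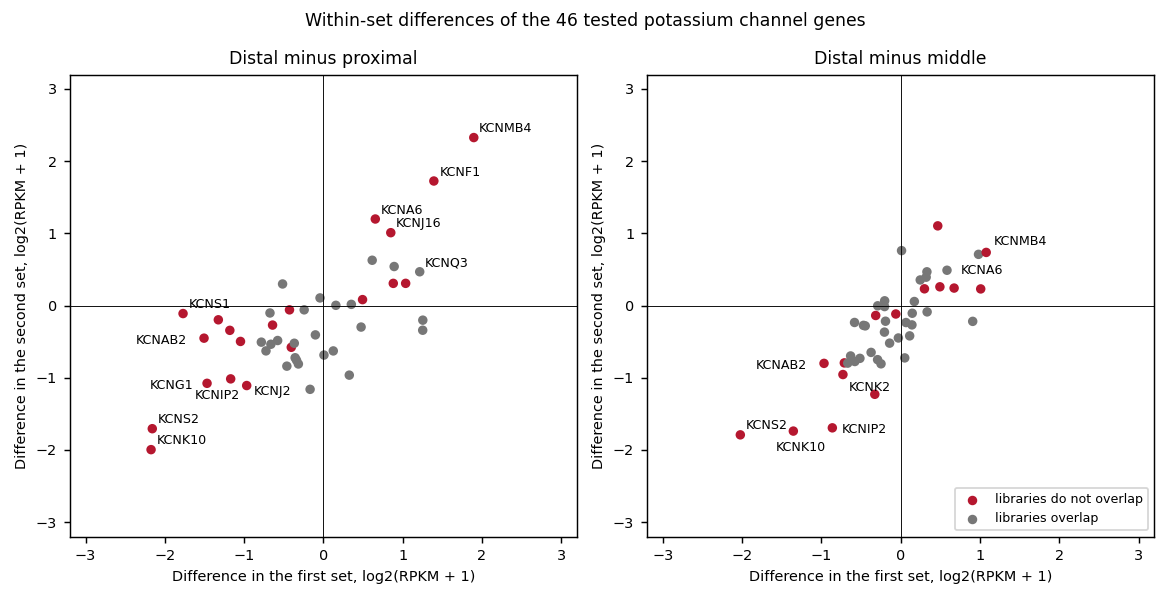
Difference of distal minus proximal (left) and distal minus middle (right) in the first set (x axis) and the second set (y axis), both in log2(RPKM + 1), for the 46 tested potassium channel genes. Red points are genes whose libraries do not overlap between the regions. KCNMB4 is at the upper right and KCNK10 and KCNS2 are at the lower left of the left panel.

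Markers of other cells moved in the same comparison. Over all genes tested, 33.3% were higher and 24.7% lower distally than proximally in both sets. Of the neuron list, 11 of 15 genes were in the table and all 10 tested were lower distally in both sets. Their summed level was 519 and 513 RPKM in the distal, 1386 and 1483 in the middle and 1735 and 1362 in the proximal libraries, and NEUROG1 was listed at 0 in the first-set proximal library. Of the hair cell list, 11 of 12 genes were in the table and 6 of 8 tested were lower distally in both sets, with sums of 85.9 and 81.7, 53.6 and 62.8, and 202.5 and 123 RPKM in the distal, middle and proximal libraries. CHRNA9 was listed at 0 in the first-set distal library. Red blood cell genes (6 of 14 in the table, all tested) were lower distally in both sets, and 7 of 10 tested prosensory genes were higher. Glial markers were lower in both sets for 3 of 5 tested, and markers of the tegmentum and other non-sensory epithelium were higher for 4 and lower for 3 of 8. Their part in the channel results was not tested.

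Between distal and middle, 13 members were higher and 25 lower in both sets (28.3% and 54.3%), against 39.9% and 30.6% of all genes. No member was called in limma with or without the block (0% of all genes), and 3 members and 210 genes (1.67%) had an unadjusted p under 0.05 without it, 14 and 960 (7.64%) with it. The 3 that separated by a log2 change of at least 1 were KCNS2, KCNK10 and KCNIP2, all lower, where 1.76% of all genes were. No member was higher by this rule, where 0.709% were. Without regard to size, 6 members were higher and 9 lower without overlap (13% and 19.6%), against 12.1% and 8.92% of all genes. Both the 13 and the 6 higher members include KCNA4, whose direction was fixed by the filter. At 1.5-fold in both sets, KCNAB1, KCNAB2, KCNC1, KCNH7 and KCNK2 were also lower, which makes 8, against 4.04% of all genes, and KCNA6 and KCNMB4 were higher, against 1.85%. All 10 tested neuron markers were lower distally here too, with a median of -1.35, while 5 of 8 hair cell markers were higher and 3 lower.

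Between middle and proximal the members showed little shared direction. In both sets 8 were higher and 10 lower (17.4% and 21.7%, against 20.8% and 14.6% of all genes), and 28 differed in sign between the sets. Limma called 0 members and 0 genes with and without the block (0%). At an unadjusted p under 0.05 there were 0 members and 111 genes (0.884%) without it and 6 members and 484 genes (3.85%) with it. KCNMB4, higher, and KCNG1, lower, were the members separated by a log2 change of at least 1, where 0.557% and 0.828% of all genes were. At 1.5-fold in both sets, KCNF1 and KCNMB4 were higher, against 0.924% of all genes, and KCNG1 and KCNJ2 lower, against 1.23%. Without regard to size, 3 members were higher and 5 lower without overlap, against 5.76% and 4.82%. Hair cell markers were lower in the middle piece in both sets for all 8 tested, and neuron markers had a median of 0.05. The F test across the 3 regions called 0 members in both models, and of all genes 0 without and 9 (0.0717%) with the block. Unadjusted, 4 members and 297 genes were under 0.05 without the block, and 14 and 1270 with it.

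**Figure D4:**
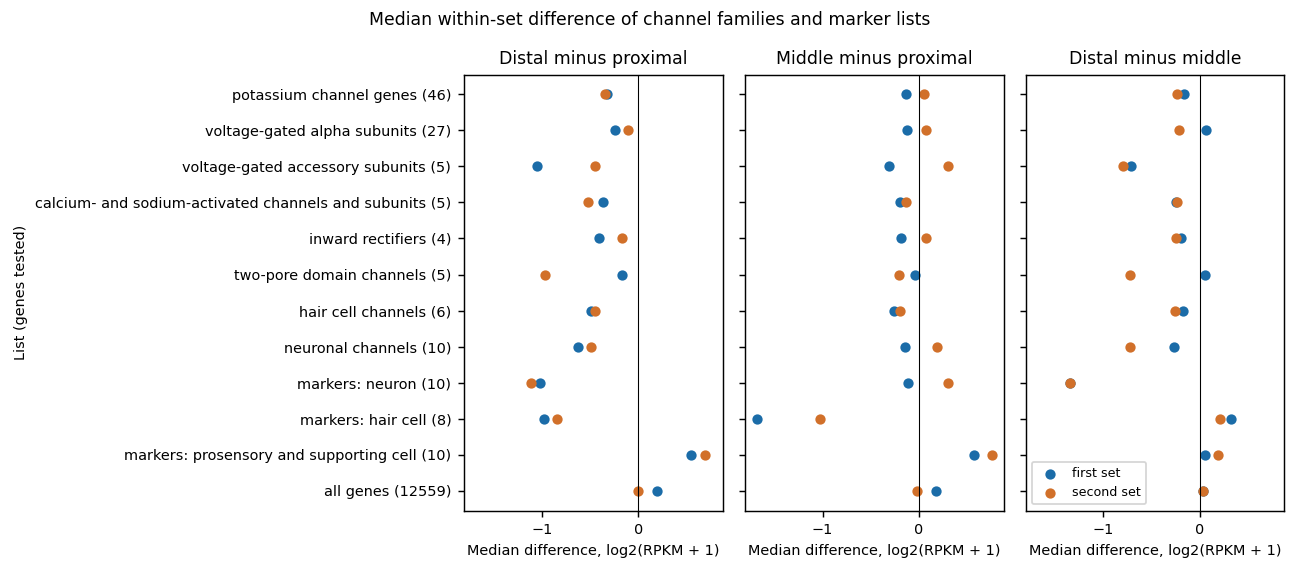
Median difference in log2(RPKM + 1) within each set, for the tested potassium channel genes, their 5 families, the lists of hair cell and neuronal channels, 3 marker lists and all genes, with the number tested in brackets. Points are the medians of the first and second set. The tested channel genes lie left of 0 between distal and proximal, as do neuron and hair cell markers, and prosensory markers lie to the right.

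A strict order along the duct, the same in both sets, was found for 12 tested members. KCNF1, KCNH5, KCNJ16, KCNMB4 and KCNQ1 stepped down from distal to proximal (10.9%, against 8.55% of all genes). The 7 that stepped up include KCNG1, KCNJ2, KCNJ3, KCNK10, KCNMA1 and KCNN2 (15.2%, against 5.61%). KCNJ12, the Kir2.2 gene, was the 1 member highest in the middle in both sets (2.17%, against 6.6%). KCNA4 and KCND2 were lowest there (4.35%, against 4.83%). That KCNA4 lay lower in the middle than distally was fixed in advance by the filter.

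Of 27 tested alpha subunits of voltage-gated channels, 9 were higher and 15 lower distally than proximally in both sets, where 33.3% and 24.7% of all genes were. The 9 include KCNA4, whose direction was fixed by the filter. KCNS2 was the 1 called with the block. KCNA6, a Kv1 gene, measured 4.45 and 9.99 RPKM distally, 1.76 and 5.72 in the middle and 2.46 and 3.79 proximally (0.93 ± 0.28 between distal and proximal, limma, blocked adjusted p = 0.224). KCNA3, another Kv1 gene, measured 4.72 and 4.89 distally, 1.84 and 4.02 in the middle and 2.11 and 3.76 RPKM proximally (0.59 ± 0.27, 0.383). Both were separated between the ends. Kv3 channels serve fast spiking in neurons, and none of the 3 tested Kv3 genes was called. KCNC1 measured 0.970 and 2.93 RPKM distally, 2.05 and 5.37 in the middle and 2.39 and 4.58 proximally (-0.65 ± 0.23, limma, blocked adjusted p = 0.292). Its distal and proximal libraries overlapped. KCNC4 measured 3.95 and 5.13 RPKM distally, 5.21 and 13.4 in the middle and 5.56 and 8.15 proximally (-0.49 ± 0.29, 0.453). KCNC2 had 2.76 and 6.01 RPKM distally, 2.41 and 7.44 in the middle and 3.04 and 8.29 proximally (-0.25 ± 0.24, 0.574), and its regions overlapped.

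Silent subunits, which modify Kv2 channels, were grouped after their values were seen. KCNF1 and the more abundant KCNG2 were higher distally than proximally in both sets, KCNG2 with overlapping libraries (0.72 ± 0.25, limma, blocked adjusted p = 0.274). KCNG1 and KCNS2 were lower, and KCNS1 had 1.20 and 3.85 RPKM distally, 2.00 and 4.90 in the middle and 6.50 and 4.24 proximally. KCNG3 stayed between 0.392 and 1.26 RPKM, and KCNG4, KCNS3, KCNV1 and KCNV2 stayed below 1 RPKM in every library.

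**Figure D5:**
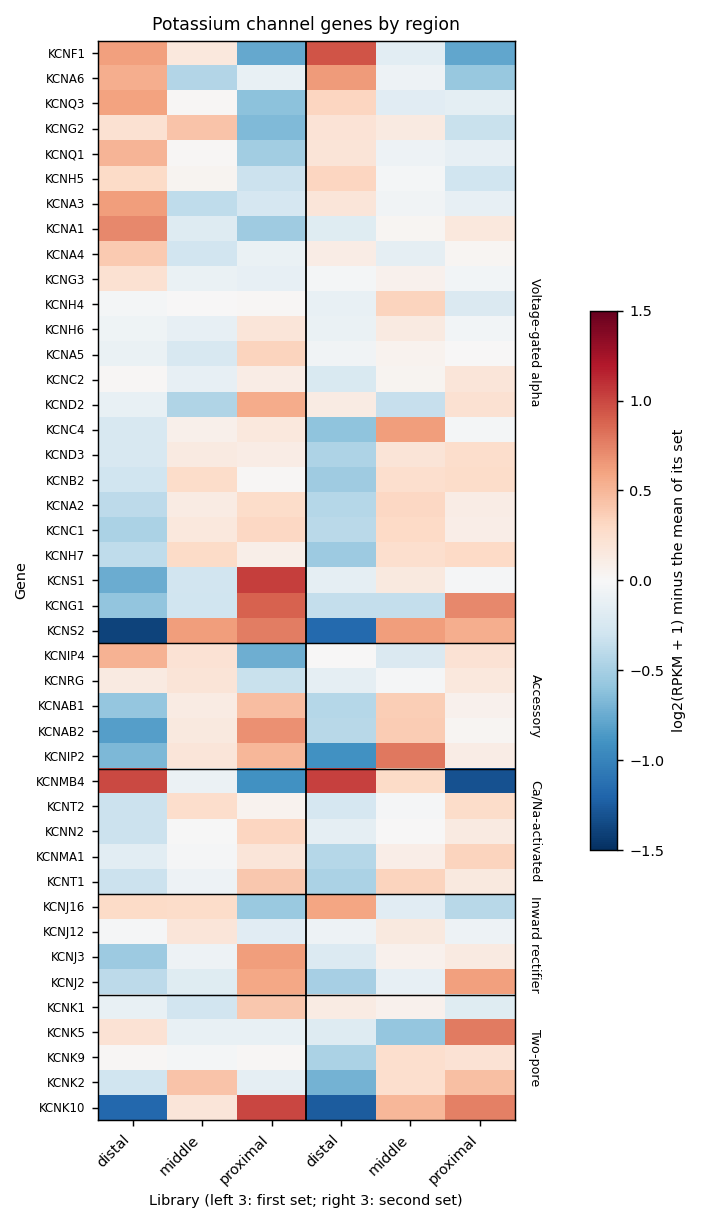
Level of 43 of the 46 tested potassium channel genes in the 6 libraries, as log2(RPKM + 1) minus the mean of the 3 libraries of its set (red above, blue below), with the first set at left and the second at right. Rows are grouped by family and ordered by the change between distal and proximal. KCNMB4 and KCNF1 are red distally in both sets, and KCNS2 and KCNK10 are blue.

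Among accessory subunits, 3 of 5 tested were lower and 0 higher distally than proximally in both sets, where 24.7% and 33.3% of all genes were. The 3 are KCNIP2, KCNAB2 (-0.98 ± 0.30, limma, blocked adjusted p = 0.233) and KCNAB1 (-0.77 ± 0.25, 0.247). KCNIP4, which also binds Kv4 channels, measured 12.2 and 12.8 RPKM distally, 9.73 and 10.7 in the middle and 4.54 and 14.8 proximally, with opposite signs in the sets. KCNRG, a regulator of Kv assembly, varied between 2.59 and 5.11 RPKM. KCND2, a Kv4 pore gene, had 1.51 and 4.08 RPKM distally, 0.993 and 2.67 in the middle and 3.00 and 4.45 proximally.

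Of 4 tested inward rectifiers, 2 were higher and 2 lower distally than proximally in both sets, where 33.3% and 24.7% of all genes were, and none was called. KCNJ16, the Kir5.1 subunit, measured 1.93 and 4.27 RPKM distally, 1.91 and 2.11 in the middle and 0.627 and 1.62 proximally (0.93 ± 0.27, limma, blocked adjusted p = 0.211). KCNJ3, a subunit of G-protein-gated channels, measured 0.599 and 2.34, 1.21 and 3.04, and 2.62 and 3.24 RPKM in the distal, middle and proximal libraries (-0.76 ± 0.28, 0.307). KCNJ16 and KCNJ2 are neighbouring protein-coding genes in the RefSeq order of assembly GRCg7b, yet KCNJ16 lay higher and KCNJ2 lower distally without overlap. Among two-pore channels, KCNK1 (TWIK-1) was the most abundant with 6.73 and 11.3 RPKM distally, 5.86 and 10.9 in the middle and 10.1 and 9.02 proximally. KCNK5, a TASK-type channel, measured 2.65 and 5.06 RPKM distally, 1.92 and 3.61 in the middle and 1.91 and 10.8 proximally.

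Of 9 channel genes listed for hair cells, 6 were tested, and between distal and proximal 1 was higher and 4 lower in both sets, against the 33.3% and 24.7% of all genes. The median was -0.49 in the first and -0.45 in the second set, and KCNMB4 was the 1 called with the block. KCNN2, the SK2 channel of efferent inhibition, measured 0.879 and 1.19 RPKM distally, 1.34 and 1.41 in the middle and 1.93 and 1.64 proximally (-0.46 ± 0.23, limma, blocked adjusted p = 0.405). Its regions did not overlap and stepped up to the proximal end. KCNA10, a hair cell Kv1 gene in the mouse, was not tested. It measured 0.0744 and 0.0816 RPKM distally, 1.65 and 0.246 in the middle and 0.903 and 0.603 proximally, and its first-set distal value equals 0.689 reads per kilobase.

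For endolymph secretion, 3 of 5 listed genes were in the table and 2 were tested. KCNQ1, the pore of the secretory channel, measured 2.93 and 3.29 RPKM distally, 1.79 and 2.59 in the middle and 0.917 and 2.47 proximally (0.67 ± 0.27, limma, blocked adjusted p = 0.329). Distal libraries lay above all others. Its partner KCNE1 was listed at 0 in all first-set libraries, and measured 0.147 RPKM in the distal, 0 in the middle and 0.0370 in the proximal library of the second set. KCNE2 and KCNE4, further KCNE subunits, stayed at or below 0.821 RPKM.

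Of 12 channel genes listed for neurons, 10 were tested. Between distal and proximal, 1 was higher and 6 lower in both sets, where 33.3% and 24.7% of all genes were. The median of the 10 was -0.57, against 0.10 over all genes. KCNQ3, a Kv7 alpha subunit gene and the 1 that was higher, measured 2.70 and 7.65 RPKM distally, 1.47 and 5.16 in the middle and 0.595 and 5.25 proximally (0.84 ± 0.28, limma, blocked adjusted p = 0.256). It was higher in every second-set library than in any first-set library. The sodium-activated channel genes KCNT1 and KCNT2 lay lower distally in both sets, KCNT2 with 1.05 and 4.31, 2.08 and 5.25, and 1.65 and 6.62 RPKM in the distal, middle and proximal libraries.

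Levels also differed between the sets. Of the 46, 34 were higher in the second set in all 3 regions (73.9%, against 48.2% of all genes), and KCNMB4 alone was lower in all 3 (2.17%, against 21%). The median difference of second minus first set was 0.74 in the distal, 0.87 in the middle and 0.74 in the proximal libraries, against 0.22, 0.24 and 0.46 over all genes. The second set also had more alignments and a lower share of ribosomal protein genes (12.5% to 14.5% of summed RPKM, against 19.5% to 23.8%), and their part was not tested. Within each set the distal library had the fewest alignments. It also had the highest ribosomal share (23.8% and 14.5%, against 19.5% and 12.7% proximally). Depth and this share thus also differ along the comparisons with the distal piece, and their part there was not tested. Depth and set cannot be told apart, and which library kit served which library is not stated.

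Of 24 listed partners of potassium channels with other names, 18 were tested. Limma called 0 of them between distal and proximal with or without the block, where the block called 0.526% of all genes, and 8 were higher and 7 lower distally in both sets, where 33.3% and 24.7% of all genes were. CNTN2, an adhesion protein that gathers Kv1 channels on axons, measured 21.5 and 80.7 RPKM distally, 89.1 and 361 in the middle and 124 and 249 proximally (-2.04 ± 0.29, limma, blocked adjusted p = 0.0603). STX1A and SNAP25, release proteins that bind Kv2 channels, had changes of -1.18 ± 0.31 and -0.90 ± 0.20, and SNAP25 is also in the neuron marker list. ABCC8, the sulfonylurea receptor of ATP-sensitive potassium channels, had a change of 0.77 ± 0.22. It measured 5.81 and 12.4 RPKM distally, 4.34 and 10.3 in the middle and 2.61 and 7.63 proximally. LRRC26, a BK gamma subunit gene, was listed at 0 in every library, while LRRC52, another one, measured 1.59 to 3.42 RPKM. LRRC38, also one, measured 2.85 and 2.44 RPKM distally, 1.08 and 2.41 in the middle and 1.22 and 2.13 proximally. Its distal and proximal libraries did not overlap (0.47 ± 0.29, limma, blocked adjusted p = 0.460).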

How the data were processed

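RPKM values of 6 libraries were deposited by the authors. TopHat 1.4.0 and Partek 6.6 are named in the submitters' processing notes; for build, annotation and strand nothing was found in the labels. No positions are printed, and reads of overlapping antisense genes cannot be told apart. The entry with alignments is no gene and was left out. Column names give region and set, not the sample record. Values were transformed as log2(RPKM + 1), which understates changes of low genes, and fitted in limma 3.58.1 (R 4.3.3) with region as a factor, a variance trend and Benjamini-Hochberg adjustment over all genes tested. The blocked model adds the set, as paired by the column names; differences between sets correlated across genes at 0.885 (distal and middle), 0.655 (distal and proximal) and 0.659 (middle and proximal), above the minimum of 0.1. It leaves 2 residual degrees of freedom, the unblocked model 3. Read counts were not rebuilt and no count model was used. The fits were tested on simulated data with a single spread for all genes, smaller than that of the members here. That test checked the sign and median size of known changes. It gives no error rates at the spread of these libraries.

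Library values were given for members with a log2 change of 1 or more either way and no overlap, and for the 3 most abundant of each family. They were also given for members past the threshold in either model, and for the hair cell and endolymph channel lists. Of these lists, KCNMB1 and KCNMB2 were given as ranges. Further members named were chosen after their values were seen. Members and lists were chosen with earlier results of these data known. In RefSeq (GRCg7b), 64 of 65 symbols matched, and it was used for gene order only. Of the lists, KCNJ10, KCNE3 and KCNH2 were not analysed here. Single values of some members are not reported here; these members stay in all counts and medians. Alternatives were the block, a pseudocount of 0.1, no filter, a filter on the mean, quantile normalization, no trend, single libraries left out and only the 2 regions compared.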

Additional observations from a re-analysis of the deposited data

How the results depend on the processing

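Without the block, limma called 0 members in each comparison of regions and in the F test, also under all alternatives tried. With the block, 3 members were called between distal and proximal, and 3 also under quantile normalization and with a filter on the mean. Of all genes tested, these fits called 66 of 12559, 257 of 12559 and 62 of 12167. Both alternatives were chosen after seeing the data, as were all combinations with the block. With the block and a pseudocount of 0.1, or with the block and no filter, all 3 lost the call and 0 members remained called. Of all genes tested, these 2 fits called 36 of 12559 and 0 of 16696. With the block and 1 library left out, which leaves 1 residual degree of freedom, 3 to 22 members were called between distal and proximal, 0 to 12 between middle and proximal, 0 to 8 between distal and middle and 3 to 23 in the F test. The same fits called 0.94% to 55.7%, 0.151% to 44.5%, 0.127% to 9.8% and 1.26% to 52.4% of all genes. The highest counts, 22, 12 and 23, came without the second-set proximal library, and 8 without either proximal library. Without the first-set proximal library, 7 were called between distal and proximal and 9 in the F test, and without the second-set distal library 4 in each. Among the fits that leave out a library, KCNS2 was the 1 of the 3 to lose a call, without the first-set distal library. With all 6 libraries, the block changed the call of no member other than these 3.

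Requiring 1.5-fold in each set left 5 higher and 6 lower members between distal and proximal, 2 and 2 between middle and proximal, and 2 and 8 between distal and middle. Without the block, the members' median between distal and proximal turned to 0.07 without the first-set distal library. It turned to 0.20 without the second-set proximal library, and in both fits the sets no longer balance. With the block and 1 library left out it stayed between -0.43 and -0.28. With the block and all 6 libraries it ran from -0.53 (pseudocount of 0.1) to -0.16 (no filter). Between distal and middle it turned from -0.18 to 0.18 without the first-set distal and 0.26 without the second-set middle library. With the block and 1 library left out it stayed between -0.25 and -0.14. With the block and all 6 libraries it ran from -0.34 (pseudocount of 0.1) to -0.097 (no filter). Between middle and proximal, where it was -0.015, it ranged from -0.50 to 0.47, and with the block from -0.18 to 0.087, above 0 without the first-set middle library. Sign changes of single members were looked up only where libraries did not overlap in the comparison. Among these, signs turned with the block and 1 library left out for KCNA5 (0.0032 between distal and proximal), KCNIP4 (-0.12 and -0.0639) and KCNRG (0.12 and 0.076, both between distal and middle). Other members turned too. Between distal and proximal, 16 of 46 lay above 0 with the block. That became 13 without the first-set distal and 18 without the second-set distal library. Between middle and proximal, 21 members lay above and 25 below 0, and 16 and 30 under quantile normalization. Depth limits genes near 1 read per kilobase in every library, such as KCNMB1.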

Other observations

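Of 7 pairs of neighbouring channel genes, only KCNA10 and KCNA2 shared a direction between distal and proximal that held in both sets. In the RefSeq order of assembly GRCg7b, KCNA6, KCNA1 and KCNA5 follow each other. KCNA6 lay higher distally than proximally in both sets, KCNA5 lower, and KCNA1 went opposite ways in the sets, with 1.50 and 0.807 RPKM in the distal and 0.0495 and 1.29 RPKM in the proximal libraries. KCNA10, KCNA2 and KCNA3 also follow each other. KCNA3 lay higher distally. KCNA10 and KCNA2 lay lower distally than proximally in both sets, KCNA10 below the filter and without a test. KCNA2, a Kv1 gene of axons, measured 0.792 and 5.01 RPKM distally, 1.56 and 8.97 in the middle and 1.84 and 7.71 proximally. Of the pair KCNIP1 and KCNMB1, both below the filter, each differed in sign between the sets. KCNK17, below the filter, lay lower distally in both sets, while its neighbour KCNK5 differed in sign between them.

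Among genes below the filter, KCNK13, a two-pore channel gene, measured 0 and 0.0304 RPKM in the distal, 0.145 and 0.0646 in the middle and 0.358 and 0.323 RPKM in the proximal libraries, and the proximal values equal 5.19 and 23.9 reads per kilobase. KCNQ5, a Kv7 gene, measured 0 and 0.265, 0.335 and 0.524, and 0.153 and 1.23 RPKM in the distal, middle and proximal libraries.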
